A study of Danio rerio with 6 samples.

Results

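Globins are the oxygen-binding proteins of red blood cells, and the globin transcripts of zebrafish trunk and tail tissue were compared here between runzel mutant larvae and their wildtype siblings. The members were all probe sets of the deposited table whose only gene symbol in the platform annotation begins with hba or hbb followed by a digit, a or e. The rule gave 6 of the 15502 probe sets that are not manufacturer's controls, for 5 genes: the embryonic alpha globin gene hbae3 with 2 probe sets, the embryonic beta globin genes hbbe2 and hbbe3, the adult alpha globin gene hbaa1 and the adult beta globin gene hbba2. The table holds 8793 named genes in all. Signal was read on Affymetrix Zebrafish Genome Arrays, which carry sets of short oligonucleotide probes and take 1 labelled sample each.

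RNA came from 3 samples of runzel mutants and 3 of wildtype siblings, all labelled 3.5 days after fertilization, with the protocol giving 3 to 3.5 days and the first visible sign of the phenotype. The series title ascribes runzel to a mutation of the muscle protein titin, and the labels name no other allele, strain or agent. Each sample was pooled muscle of larvae from which head, heart and gut had been cut away, and the protocol describes no step that takes blood, vessels or skin off the trunk. Mutants and siblings of 3 clutches were matched by the study, but the labels do not say which array came from which clutch. In bulk tissue of this kind fewer red cells and less globin RNA per cell cannot be told apart.

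Hemoglobin is a tetramer of alpha and beta chains, each holding a heme, and its RNA makes up most of the messenger RNA of a red cell. Zebrafish, like other vertebrates, switch chains during life: circulating red cells of the embryo and young larva carry embryonic chains, which adult chains replace later. In the RefSeq gene table (assembly GRCz12tu) 15 genes carry names of this pattern and lie in 2 clusters. The larger cluster holds 11 of them, among them hbae3, hbaa1 and hbba2, and the smaller holds 4, in which hbbe3 and hbbe2 are direct neighbours. Of the 15 genes, 5 have a probe set of their own, 6 are annotated only to probe sets shared by several globin genes, and 4 were matched to no probe set. Globin genes include near-identical copies, and how much of a probe set's signal comes from a copy was not tested.

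The 6 arrays had been scaled to a common level before deposit, with median signals of 602.1 to 672.3. Of 18 defining muscle markers 15 had a probe set of their own, and all 15 passed the filter on dim probe sets. The heart marker myl7 read 38.6 in wildtype siblings and 36.3 in runzel (mean signal), under that filter. Of the 8 heart markers on the array 2 passed it, hand2 (4119.2 in wildtype siblings, 3197.3 in runzel) and myh7 (2461.1 and 1961.6). Both were lower in runzel in 3 of 3 pairs. Under the filter, nkx2.5 and tnnt2a read higher in runzel in 3 of 3 pairs, tnnc1a and cmlc1 in 2 of 3, and myl7 and tbx5a in 1 of 3. Arrays of the same number deviated together from their group means (correlations of 0.551, 0.389 and 0.526), so values are also given within pairs of the same number, and limma fits with and without this pairing are called paired and unpaired. Adjusted p-values come from limma with Benjamini-Hochberg adjustment over 9301 tested probe sets, with a threshold of 0.05. Log2 changes are runzel minus wildtype sibling of log2 of signal plus 50, a scale that understates the change of dim probe sets. With 3 arrays per group, the precision of every value is limited by their number.

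The unpaired limma fit was planned as the main one, because no label gives the pairing, and it called no globin probe set. In the paired fit, its alternative, the embryonic beta globin hbbe2 was called lower in runzel. The embryonic alpha globin hbae3 was lower by a smaller amount that did not pass. The other embryonic beta globin, hbbe3, and the adult alpha globin hbaa1 read higher in runzel in 3 of 3 pairs. Of these, hbbe3 did not pass and hbaa1 was too dim to be tested. Of the 6 probe sets 4 passed the filter on dim probe sets and were tested: both of hbae3, hbbe2 and hbbe3. In the paired limma fit 1 of the 4 was called, as lower, against 0.473% of all tested probe sets called lower, 0.72% called higher and 1.19% called in either direction. In the unpaired limma fit 0 of the 4 were called, as were 0 (0%) of all tested probe sets, where 447 (4.81%) had an unadjusted p under 0.05 and none of these was a member. The median log2 change was -0.21 over the 4 tested globin probe sets and 0.00594 over all 6, beside 0.00618 over all tested probe sets. The 2 probe sets of hbae3, at -0.23 and -0.19, are the middle values of the 4 and so set that median.

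**Figure D1:**
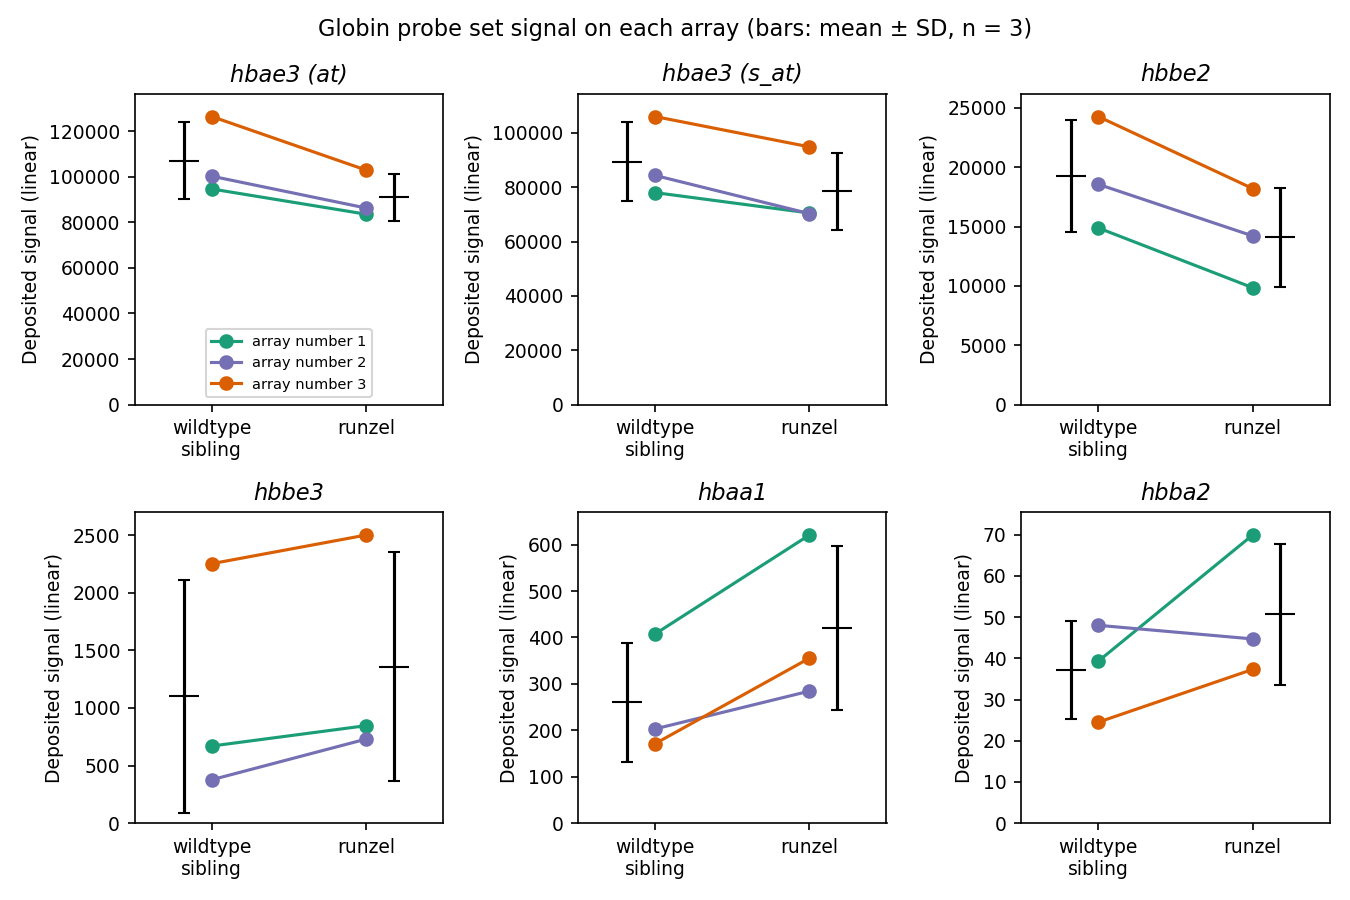
Deposited linear signal (vertical axis, from 0, with its own range in each panel) of the 6 globin probe sets on the 3 wildtype sibling and 3 runzel arrays, with lines joining arrays of the same number and black bars for the mean ± SD of each group. All lines of hbae3 and hbbe2 slope down to runzel, all lines of hbbe3 and hbaa1 slope up, and the groups overlap in every panel.

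The first alpha globin is hbae3, which encodes an alpha chain of embryonic hemoglobin. Its first probe set, of the kind designed against a single transcript, read 94633.4, 100239.9 and 126412.1 on wildtype sibling arrays 1, 2 and 3, and 83564.2, 86270.7 and 102916.5 on runzel arrays 1, 2 and 3. Each runzel array lay below the wildtype array of its number, but runzel array 3 lay above wildtype arrays 1 and 2, so the groups overlapped. The log2 change was -0.23 ± 0.0599 (SD over 3 pairs), a level 1.17-fold higher in wildtype siblings, which missed the threshold in the paired limma fit (adjusted p = 0.0862) and in the unpaired one (adjusted p = 0.977, exact permutation p = 0.3). Its 95% interval in the paired fit ran from -0.35 to -0.11.

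The second hbae3 probe set, marked s_at in its name, is of the kind whose probes can match several related transcripts. It read 78029.8, 84360.8 and 106018.8 on wildtype sibling arrays 1, 2 and 3, and 70531, 70300.5 and 94867.5 on runzel arrays 1, 2 and 3. The same order held, with each runzel array below its partner and array 3 highest in both groups. Its log2 change of -0.19 ± 0.0639 (SD over 3 pairs) did not pass (paired limma adjusted p = 0.184, unpaired 0.977, exact permutation p = 0.5). With wildtype replicate 3 left out the changes of the first and second hbae3 probe set shrank to -0.11 and -0.06, and without runzel replicate 3 they were -0.32 and -0.33. The second was also at -0.12 without runzel replicate 1 or runzel replicate 2. The changes of the 2 hbae3 probe sets differed by -0.04 ± 0.0916 (SD over 3 pairs).

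Very bright probe sets were lower in runzel on the whole, and hbae3 is among the brightest. Of the 37 other non-control probe sets at least as bright as the dimmer hbae3 probe set, globins left out, 97.3% lay below 0 and 54.1% were lower in 3 of 3 pairs, beside 16.7% of all tested probe sets. Their median log2 change was -0.0908, and 0 and 1 of the 37 had a change as low as the first and second hbae3 probe set. Quantile normalization, which gives all arrays the same distribution, brought the median of these 37 to 0.00866 and the hbae3 changes to -0.13 and -0.08. Which part of the hbae3 change this shift of bright probe sets makes up was not tested.

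The embryonic beta globin gene hbbe2, of the smaller globin cluster, encodes a beta chain of embryonic hemoglobin. It read 14882.2, 18553.6 and 24258.9 on wildtype sibling arrays 1, 2 and 3, and 9850.9, 14212 and 18199 on runzel arrays 1, 2 and 3. Within every pair the runzel array was lower, and in both groups array 1 was lowest and array 3 highest, so that the ranges of the groups overlapped. The mean signal of wildtype siblings was 19232 ± 4725 and that of runzel 14087 ± 4175.4 (SD, n = 3).

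Within pairs the log2 change of hbbe2 was -0.59, -0.38 and -0.41, a mean of -0.46 ± 0.113 (SD over 3 pairs), or 1.38-fold higher in wildtype siblings. This passed in the paired limma fit (adjusted p = 0.0278, 95% interval -0.65 to -0.27) and not in the unpaired one (adjusted p = 0.977, 95% interval -0.99 to 0.06). The exact permutation p was 0.2, where 3 arrays against 3 cannot go below 0.1, and the exact sign-flip p over 3 pairs was 0.25, the smallest possible. The paired call was lost when pair 1 was left out (limma adjusted p = 0.325), without pair 2 (adjusted p = 0.0669), without the intensity trend of the variance (adjusted p = 0.297), after quantile normalization (-0.39, adjusted p = 0.0536) and in the limma fit with array number as a random block (adjusted p = 0.29). The unpaired change shrank to -0.23 when runzel replicate 1 was left out and to -0.28 when wildtype replicate 3 was.

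Of the 926 other probe sets in the brightest 10% of those tested, globins left out, 1.94% had a change as low as that of hbbe2, and their median was -0.0765. The 3′ to 5′ signal ratio of the actin control probe sets, commonly taken as a reading of RNA integrity, was 2.64, 2.03 and 2.78 on runzel arrays 1, 2 and 3, and 1.43, 1.37 and 1.74 on wildtype arrays 1, 2 and 3. It thus moved with the groups without overlap (exact permutation p = 0.1, the smallest possible). This separation depends on the 5′ control used, since the array carries another 5′ actin control. With that control the groups overlapped. Runzel array 2 (3′ signal 121842.8, 5′ signal 92350.6) then had a lower ratio than wildtype array 3 (167536.6 and 121045.5). The GAPDH ratio averaged 1.57 ± 0.0391 in wildtype siblings against 1.5 ± 0.0374 in runzel (SD, n = 3), with an exact permutation p of 0.2. The actin controls are named for acta1, a muscle actin, and the muscle marker acta1a was itself lower in runzel. Its log2 change was -0.78 (limma adjusted p = 0.00313 paired, 0.772 unpaired). Whether the actin ratio reads RNA integrity or a change of actin transcripts was not tested. The part of RNA integrity in the globin values was not tested either.

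**Figure D2:**
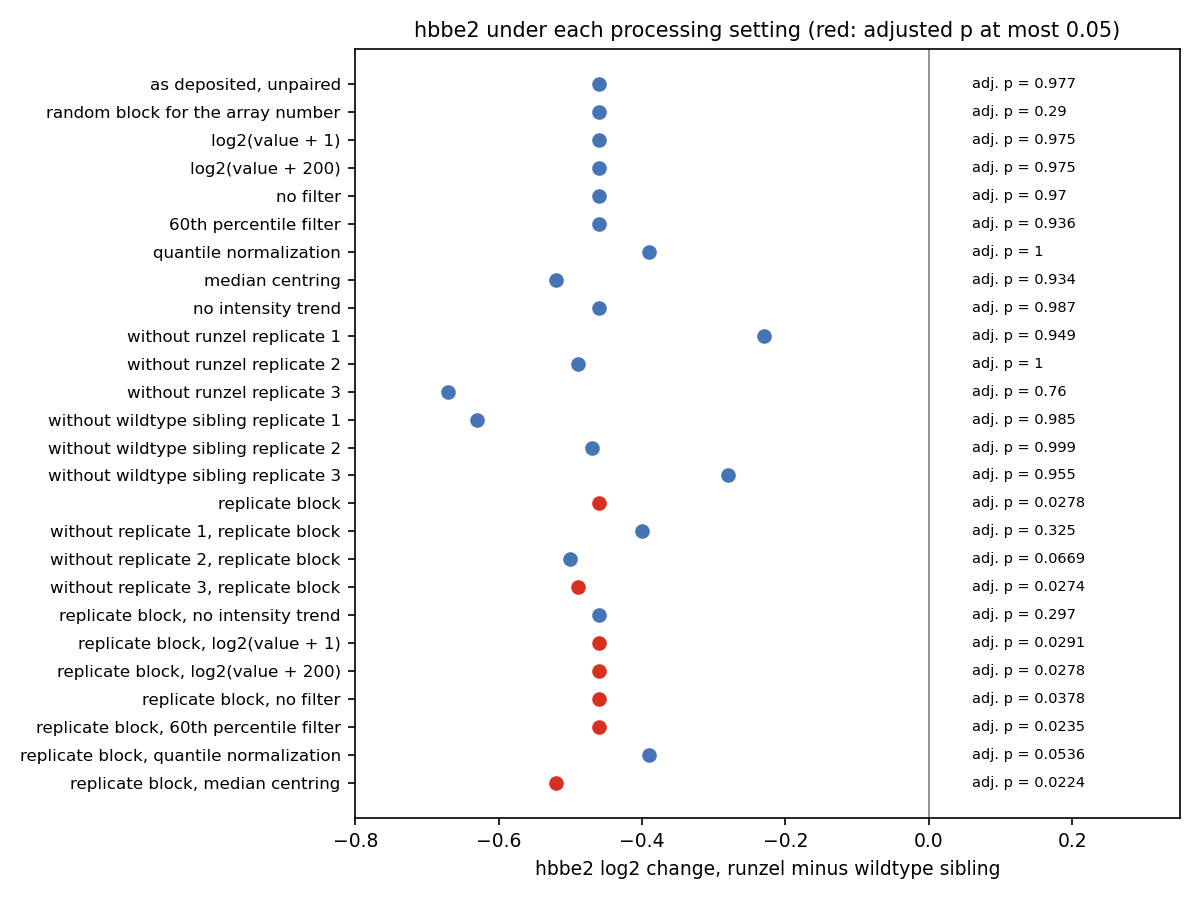
Log2 change of hbbe2, runzel minus wildtype sibling (horizontal axis), under the unpaired setting as deposited and each alternative (vertical axis), with the limma adjusted p printed beside each point and red for values that passed. Every point lies below 0, from -0.67 to -0.23, and the 7 red points all belong to fits with the replicate block.

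The gene hbbe3 encodes the other embryonic beta chain of the smaller cluster and neighbours hbbe2. It read 669.9, 377.1 and 2253.2 on wildtype sibling arrays 1, 2 and 3, and 846.6, 730 and 2501.7 on runzel arrays 1, 2 and 3. Each runzel array lay above the wildtype array of its number, and array 3 stood far above the other arrays in both groups. The log2 change was 0.44 ± 0.377 (SD over 3 pairs) and did not pass (paired limma adjusted p = 0.308, unpaired 0.995, exact permutation p = 0.5). The unpaired change turned to -0.09 when either runzel replicate 3 or wildtype replicate 2 was left out, and was 1.13 without wildtype replicate 3.

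Adult chains were represented by a probe set each for hbaa1 and hbba2, both too dim to be tested. The adult alpha globin hbaa1 read 407.5, 203 and 171.2 on wildtype sibling arrays 1, 2 and 3, and 620.6, 284.4 and 355.3 on runzel arrays 1, 2 and 3. Within each pair runzel was higher, with overlap because wildtype array 1 lay above runzel arrays 2 and 3. Its log2 change was 0.61 ± 0.241 (SD over 3 pairs, exact permutation p = 0.3, exact sign-flip p = 0.25), and with an array left out it ran from 0.32 without runzel replicate 1 to 0.93 without wildtype replicate 1. When the filter was removed so that hbaa1 could be tested, it did not pass (paired limma adjusted p = 0.464, unpaired 0.97).

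The adult beta globin hbba2 was near the bottom of the signal range, dimmer than all but 3.13% of probe sets. It read 39.3, 48 and 24.5 on wildtype sibling arrays 1, 2 and 3, and 69.9, 44.7 and 37.3 on runzel arrays 1, 2 and 3. Runzel was higher in 2 of 3 pairs, and the log2 change of 0.20 ± 0.238 (SD over 3 pairs) was smaller than its spread (exact permutation p = 0.5).

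**Figure D3:**
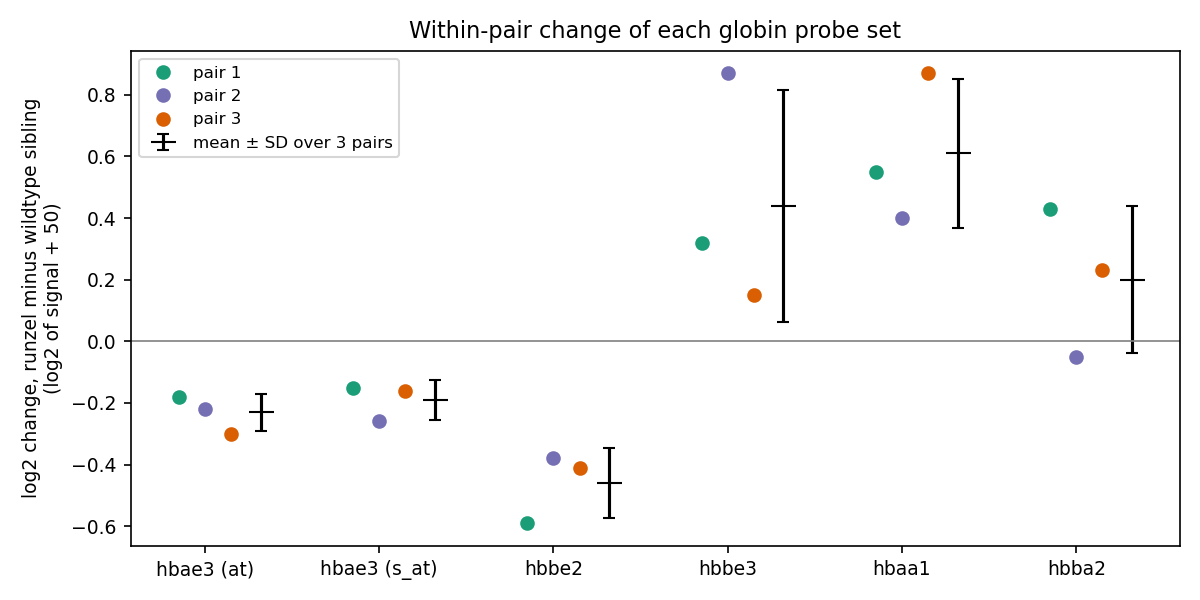
Log2 change, runzel minus wildtype sibling, of each globin probe set (vertical axis, log2 of signal plus 50) within the 3 pairs of the same array number, with the mean ± SD over pairs in black. Both hbae3 probe sets and hbbe2 lie below 0 in 3 of 3 pairs, hbbe3 and hbaa1 lie above 0 in 3 of 3, and hbba2 lies on both sides.

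Sharing a sign within all pairs was common in this table. Of the tested probe sets, 16.7% were lower and 18.1% higher in runzel in 3 of 3 pairs, and over all non-control probe sets the shares were 13.2% and 18.6%. Among the brightest 10% of tested probe sets, which hold hbbe2, 35.9% were lower in 3 of 3 pairs, globins left out. Of the 6 globin probe sets 3 were lower, 2 of them probe sets of hbae3, and 2 higher in 3 of 3 pairs. The groups overlapped for all 6. Only 10.3% of all non-control probe sets had groups without overlap, so overlap in all 6 is near that background and no trait of the globins.

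Changes were also set against each other within an array, for all 15 pairs of globin probe sets, a comparison chosen after the values were seen. The log2 change of hbbe2 was below that of its neighbour hbbe3 by -0.91 ± 0.345 (SD over 3 pairs), in 3 of 3 pairs. The change of the dim, untested hbaa1 lay above that of hbbe2 by 1.07 ± 0.258, also in 3 of 3. Most of the 15 comparisons, which share members, kept their sign in 3 of 3 pairs. Over the 3 arrays of each group the ratios overlapped in all 15 comparisons, and the smallest exact permutation p was 0.3 (0.5 after Benjamini-Hochberg adjustment over the 15). Unequal change of the globin genes was therefore not shown by this test, which ignores the pairing and cannot go below 0.1.

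The embryonic globins also differed between array numbers. In the paired limma fit the moderated F test for array number, chosen after the values were seen, passed for all 4 tested globin probe sets, beside 8.3% of all tested probe sets. The mean log2 level of hbbe3 was 9.65, 9.17 and 11.24 for array numbers 1, 2 and 3 (adjusted p = 0.000428), a range of 2.07 that was wider than that of 99.6% of tested probe sets. For hbbe2 the levels were 13.57, 13.99 and 14.36 (adjusted p = 0.00296), a range wider than that of 92.1% of tested probe sets. The ranges of the hbae3 probe sets were 0.36 and 0.43 (adjusted p = 0.0145 and 0.00549). These were wider than those of 55.1% and 66.4% of tested probe sets, and so not far from the middle. Array 3 was the highest for all 4 tested globin probe sets. The untested hbaa1 ran the other way, from 9.11 for number 1 to 8.18 and 8.23 for numbers 2 and 3.

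Over the 6 arrays the log2 values of hbbe2 correlated with those of hbae3 at 0.93 and 0.89 (Pearson's r), of hbbe3 at 0.42, of hbaa1 at -0.89 and of hbba2 at -0.90. These values are a description over 6 arrays that share groups and array numbers. Among 5842 other named genes tested, 86 had an r over 0.9 with hbbe2. The 6 closest were rhpn2, which encodes a rhophilin (r = 0.992), the translation elongation factor gene eef2b (0.981), the cyclin gene ccni (0.975), urod, which encodes a heme synthesis enzyme (0.975), the sodium pump subunit gene atp1b1a (0.974) and kdelr3, which encodes a receptor for proteins retained in the endoplasmic reticulum (0.968). Chosen for likeness to hbbe2 over these same arrays, and so for its direction too, all 6 were lower in runzel in 3 of 3 pairs, with log2 changes from -0.41 for rhpn2 to -0.11 for eef2b and ccni, and none passed in the paired limma fit (adjusted p from 0.164 to 0.632).

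No gene of heme synthesis passed. Of 9 tested heme synthesis genes 7 lay above 0 and 2 below, with a median log2 change of 0.0935. Of all 9301 tested probe sets 4769 lay above 0 and 4532 below. In the paired and the unpaired limma fit 0 of the 9 were called (0 with an unadjusted paired p under 0.05, beside 12.7% of all tested probe sets). The erythroid gene alas2, which encodes the first enzyme of heme synthesis in red cells and was singled out after its values were seen, had mean signals of 2266.2 in wildtype siblings and 2292.1 in runzel, with a log2 change of 0.03 ± 0.0681 (SD over 3 pairs). Of the 3 brightest of the list, alas1, the general form of that enzyme, had a log2 change of 0.14, tmem14ca, whose mammalian counterpart carries a heme precursor into mitochondria, 0.04 and the iron-sulfur cluster gene glrx5 -0.01. The enzyme gene urod was at -0.18.

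Of 16 tested red-cell membrane and enzyme genes 12 lay below 0 and 4 above, with a median log2 change of -0.126. Below 0 lay 4532 of all 9301 tested probe sets. With globins left out, the share was 71.9% in the brightest 10% and 46.1% in the other tested probe sets, and the list has genes in both. In the paired limma fit 1 passed, as lower, beside 0.473% of all tested probe sets. An unadjusted paired p under 0.05 was held by 6, of which 5 were lower, beside 12.7% of all tested probe sets in either direction. The gene that passed was the water channel gene aqp1a.1, expressed in red cells and in endothelium. Its log2 change was -0.60 ± 0.256 (SD over 3 pairs, paired limma adjusted p = 0.0342, unpaired 0.818). It did not pass without pair 1 (adjusted p = 0.283), without pair 2 (0.164), without the intensity trend (0.273) or with array number as a random block (0.116). The gene slc4a1a, which encodes the anion exchanger of the red-cell membrane and was also singled out after its values were seen, was at -0.04 ± 0.111 (SD over 3 pairs), with mean signals of 2338.7 in runzel and 2398.9 in wildtype siblings. Other members, singled out in the same way, moved further: cahz (-0.35), epb41b (-0.44), prdx2 (-0.27) and tspo (-0.48) were lower, and sptb (0.55) was higher. None of them passed in the paired limma fit (adjusted p = 0.325, 0.51, 0.239, 0.0885 and 0.141). Some members are also expressed in muscle, so that the list is not specific to blood. Among erythroid transcription factor genes 2 of 5 tested lay above 0 and 3 below, and 0 passed (1 with an unadjusted paired p under 0.05, as lower). That gene was lmo2, lower in 3 of 3 pairs (-0.49 ± 0.138, SD over 3 pairs, paired limma adjusted p = 0.358). The brightest members of the list, klf3, ldb1a and myb, were at 0.06, 0.06 and -0.04. Of the 10 on the array, 5 were too dim to be tested, among them the erythroid regulators gata1a and klf1, singled out afterwards.

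The list of iron handling and of plasma proteins that bind free hemoglobin had 6 tested genes, all below 0, with a median log2 change of -0.313. Of these ftr82 is a finTRIM gene for which the sources used here give no role in iron handling. Without it, a choice made after the data were seen, the other 5 lay below 0 with a median of -0.304, and 4 of them had an unadjusted paired p under 0.05. In the paired limma fit 1 of the 6 passed, beside 0.473% of all tested probe sets called lower. An unadjusted paired p under 0.05 was held by 5, all lower, beside 12.7% of all tested probe sets in either direction. The gene that passed was tfa, which encodes the iron carrier transferrin made by the liver (-0.52 ± 0.249, SD over 3 pairs, paired limma adjusted p = 0.035, unpaired 0.977). The tfa call was lost without pair 1 (adjusted p = 0.0621), pair 2 (0.15), the intensity trend (0.301), under quantile normalization (0.0536) and with the random block (0.313). Of the globins outside red cells, only the myoglobin gene mb passed the filter among 4 on the array. It had a log2 change of 0.56 ± 0.926 that varied in sign between pairs (paired limma adjusted p = 0.458).

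Other cells of blood and vessels were read by marker lists, which were chosen with earlier results of these data known. Of 15 tested leukocyte and thrombocyte markers 12 lay above 0 and 3 below, with a median log2 change of 0.311, beside 4769 of all 9301 tested probe sets above 0. Of the 15 markers 0 passed (7 with an unadjusted paired p under 0.05, beside 12.7% of all tested probe sets). Signal summed over the 25 list genes on the array was 36419 to 42439 in runzel and 34893 to 36164 in wildtype siblings, higher without overlap. The brightest were the lysozyme gene lyz (0.31), nccrp1 (0.20) and the myeloid factor gene cebpa (-0.37). Of 6 tested endothelium markers 5 lay below 0, with a median of -0.236, beside 4532 of all 9301 tested probe sets below 0. An unadjusted paired p under 0.05 was held by 3, all lower, beside 12.7% of all tested probe sets in either direction. The transcription factor gene klf2a, which is induced by blood flow, was lower (-0.70 ± 0.172, SD over 3 pairs, paired limma adjusted p = 0.0385, unpaired 0.977). The klf2a call was lost with any pair left out (adjusted p = 0.168, 0.161 and 0.059 without pairs 1, 2 and 3), without the intensity trend (0.193) and with the random block (0.277). The endothelium signal summed over the 7 list genes on the array was lower in runzel without overlap, at 11113 to 11842 against 13079 to 15670 in wildtype siblings. Most of it came from plvapb, at 5917.7 to 6685.3 in runzel and 6876.6 to 9197.8 in wildtype siblings. The gene tie1 went the other way (0.23). The sum over the 8 iron and hemoglobin-binding genes on the array was also lower without overlap, at 79181 to 83523 in runzel and 91719 to 102050 in wildtype siblings, and that over 11 heme synthesis genes was higher without overlap, at 24283 to 24841 against 22452 to 23871. The 8 heart markers on the array, of which 2 were tested, summed to 5223.6 to 6444.3 in runzel and 6698 to 7644.1 in wildtype siblings, also lower without overlap. Most of that heart sum came from the 2 tested genes, hand2 and myh7. Sums overlapped between the groups for red-cell membrane and enzyme genes, at 106560 to 120750 in runzel and 117970 to 128810 in wildtype siblings. Those of erythroid transcription factor genes overlapped too (7856.3 to 10642 and 7698.8 to 10046), as did those of the other globins and the muscle markers. A sum is ruled by its brightest genes, and no background share was computed for such sums. The part of these shifts in the hbbe2 value was not tested.

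**Figure D4:**
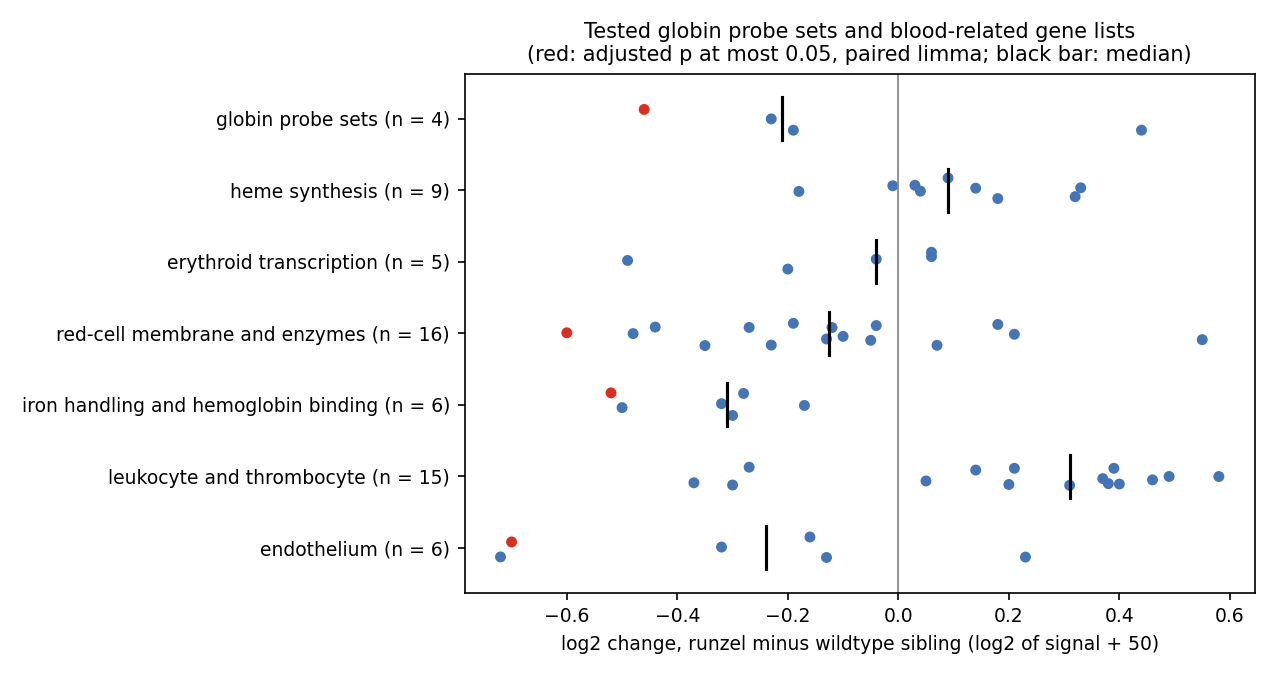
Log2 change, runzel minus wildtype sibling (horizontal axis, log2 of signal plus 50), of the tested globin probe sets and of tested genes in 6 blood-related lists, each gene at its brightest probe set. Red points passed in the paired limma fit (hbbe2, aqp1a.1, tfa and klf2a), and black bars give medians, at -0.21 for the globins, 0.0935 for heme synthesis and 0.311 for leukocytes and thrombocytes.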

How the data were processed

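Signal was measured on 6 arrays, 3 per group, grouped by their titles. The deposited values are linear signal intensity per probe set, quantified by the authors with GeneChip Operating Software 1.2 per the labels. Not given in the sources used here are the way probes were summarised and the scaling target. Trimmed means (2%) of 1500.42 to 1500.46 show that the deposited arrays had been scaled, so no further scaling was applied and values were analysed as log2 of the value plus 50.

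Probe sets were named from the platform annotation, with symbols updated through Entrez identifiers found in RefSeq (10711 of 10795 with 1 symbol; 135 had several and 4572 none). Probe sets under the 40th percentile of mean log2 value (8.904) and 115 controls were left out, which kept 9301. The comparison used limma 3.58.1 under R 4.3.3 (two-sided, intensity trend). The fit without a block was planned as the main one, and the fit with the array number as a block was its alternative. Same-number arrays correlated in their deviations at 0.389 to 0.551 and different numbers at -0.401 to -0.152. Deviations from a group mean sum to 0, so positive same-number values bring the others below 0, and the negative values add no evidence. The same-number correlations, and no label, are why the numbers were taken to pair arrays. On simulated data 200 of 9301 probe sets were changed by a log2 of 1, a larger change than that of hbbe2. The unpaired fit recovered 18% and the paired fit 41%. An effect shared by arrays of the same number was built into these data, which favours the paired fit. The shares therefore cannot decide which fit suits the real arrays.

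Each list gene was represented by its brightest probe set. Named were all globin probe sets, the 6 genes most like hbbe2 and, per blood-related list, every gene called in either fit or else the 3 brightest. Named after their values were seen were the heart markers, alas2, urod within its list, slc4a1a, cahz, epb41b, prdx2, tspo, sptb, lmo2, gata1a, klf1, acta1a and ftr82. Members and lists were chosen with earlier results of these data known. The alternatives were other offsets, filters, normalizations, blocks, no trend and left-out arrays. Those joining the replicate block with another change were added after the data were seen.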

Additional observations from a re-analysis of the deposited data

How the results depend on the processing

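Settings without pairing called 0 globin probe sets in each of 13 alternatives. With the replicate block hbbe2 passed at a log2 change of -0.46 (limma adjusted p = 0.0278), the 1 globin called lower, and the count of all calls rose from 0 to 111. The random block gave 19 calls and none for hbbe2 (adjusted p = 0.29). Beside the replicate block, in settings added after the data were seen, hbbe2 stayed at -0.46 and was the 1 globin called with an offset of 1 (106 calls in all), an offset of 200 (113), no filter (81) and a 60th percentile filter (102). Under median centring hbbe2 (-0.52) and the first hbae3 probe set (-0.28, adjusted p = 0.0257) made 2. Quantile normalization gave 104 calls and no trend 3, with no globin in either, and median centring 93. With a pair left out the calls were 41, 32 and 165 without pairs 1, 2 and 3, and hbbe2 passed without pair 3 alone (-0.49). The median of the 6 globin probe sets was 0.122 with an offset of 1. On the values as deposited the block changed no other globin call.

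With an array or a pair left out, the median of the 6 ran from -0.208 to 0.0609, hbbe3 from -0.09 to 1.13 and hbbe2 from -0.67 to -0.23. The direction of hbae3, hbaa1, hbba2 and hbbe2 was kept in all 25 alternatives, while hbbe3 reversed in 2. Low signal limits hbaa1 and hbba2, which were tested only without the filter.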

Other observations

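Beside the members, 4 probe sets are annotated to several globin genes at once and can be given to no single gene. The pair of bright ones, with signals from 64687.9 to 144441.6, had log2 changes of -0.20 ± 0.0822 and -0.20 ± 0.128 (SD over 3 pairs), lower in 3 of 3 pairs (paired limma adjusted p = 0.18 and 0.177). The third was lower in every runzel array than in any wildtype sibling array, at 2015.3, 1672 and 1730.5 on runzel arrays 1, 2 and 3 against 2797.9, 2618.1 and 2412.9 on wildtype arrays 1, 2 and 3. Its log2 change of -0.52 ± 0.0958 (SD over 3 pairs) missed the threshold paired (limma adjusted p = 0.0912) and unpaired (adjusted p = 0.818, exact permutation p = 0.1, the smallest possible). It carries the same gene symbols as the first of the bright pair, and their changes differ in size. The last read 646.5, 660.8 and 455.4 on runzel arrays 1, 2 and 3 and 213.2, 443.6 and 693.8 on wildtype sibling arrays 1, 2 and 3, with a sign that varied between pairs (log2 change 0.46 ± 0.983, exact permutation p = 0.6).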
